A study of Homo sapiens with 24 samples.

Results

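A set of 10 enzymes and partners that write silencing marks on chromatin was followed in A549 cells, a human lung carcinoma line, and Huh7 cells, a human hepatocellular carcinoma line. The 10 genes are DNMT1, DNMT3A, DNMT3B, UHRF1, HELLS, EZH1, EZH2, SUV39H1, SUV39H2 and KMT5A. They were chosen by symbol among the 14585 genes of the count table, and all 10 were present and were tested in both lines. RNA was sequenced from control cells and from cells treated with an ethanol extract of a herb. The herbs were Pulsatilla chinensis (P. chinensis), Bupleurum chinense (B. chinense) and Polyporus umbellatus (P. umbellatus). There were 3 libraries for each group and line and 24 libraries in all. The extracts were dissolved in DMSO, both lines carry the genotype label WT, and the dose, the time and the vehicle of the sequenced cells are not given in the sources used here. The label does not mean that the lines share a genotype, since the authors describe A549 cells as wild-type for p53 and Huh7 cells as mutant for p53. The part of p53 in the differences between the lines was not tested. Each line is a single cell line kept in culture. Whether the 3 libraries of a group came from separate cultures is not stated either, so each p-value measures the spread between these libraries, which may be technical.

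Silencing of chromatin rests on methyl groups placed on DNA and on histone tails. These marks are diluted each time DNA is replicated and are written again on the new strands, so dividing cells hold much of this machinery, and several of its genes are transcribed mainly in cells that enter S phase. DNA methylation is copied by DNMT1 together with UHRF1 and the remodeler HELLS, the Polycomb enzymes EZH1 and EZH2 methylate lysine 27 of histone H3, SUV39H1 and SUV39H2 methylate lysine 9 of histone H3, and KMT5A places a single methyl group on lysine 20 of histone H4.

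The positions are those of the GRCh38 annotation. DNMT1, the maintenance DNA methyltransferase, lies at chr19:10133342-10231286 on the minus strand. DNMT3A at chr2:25227855-25342590 on the minus strand and DNMT3B at chr20:32762385-32809359 on the plus strand encode the de novo DNA methyltransferases. UHRF1 (chr19:4903080-4962154, plus strand) encodes the protein that reads hemimethylated DNA and brings DNMT1 to it. HELLS (chr10:94545329-94613905, plus strand) encodes a chromatin remodeling ATPase needed for DNA methylation. EZH1 (chr17:42700275-42745049, minus strand) and EZH2 (chr7:148807257-148884321, minus strand) encode the 2 alternative catalytic subunits of Polycomb repressive complex 2. SUV39H1 (chrX:48695554-48709016, plus strand), SUV39H2 (chr10:14878820-14904315, plus strand) and KMT5A (chr12:123384132-123409353, plus strand) encode histone methyltransferases.

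The 250 bases before the first listed RefSeq start of each gene (GRCh38.p14) were searched on both strands for 3 short motifs of cell cycle promoters. The E2F core was searched as TTCCCGC in its main form, as TTCGCGC in another, and also as TTGCCGC and, last of the forms, as TTGGCGC. It was found before 4 of the 10 genes (40.0%), compared with 16.8% of the 11757 genes of the count table that have a listed start and 11% of all 27303 promoters. UHRF1 and HELLS each had 2 matches, and EZH1 and KMT5A each had 1. A cell cycle homology region, searched as TTTGAA and in its other form as TTTAAA, was found only before KMT5A among the 10, against 15.4% of the genes of the count table and 22.1% of all promoters. A CCAAT box (CCAAT) was found before 5 of the 10 genes (DNMT3B, UHRF1, EZH2, HELLS and KMT5A), against 35% and 33% of the same sets. EZH2 had 4 CCAAT boxes and no E2F core. The following stretches are shown because UHRF1 and HELLS fell in both lines with P. chinensis, EZH2 and KMT5A fell only in tests of A549 cells, and EZH1 passed no test against control. They read 5′ to 3′ and capitals mark the E2F core. Exons annotated within the windows were left out, apart from 30 bases at the starts of UHRF1 and HELLS.
UHRF1, chr19:4909251-4909429, plus strand: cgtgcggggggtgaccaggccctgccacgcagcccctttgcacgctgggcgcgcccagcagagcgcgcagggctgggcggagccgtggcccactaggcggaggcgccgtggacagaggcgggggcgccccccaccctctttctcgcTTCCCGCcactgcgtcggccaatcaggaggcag
UHRF1, chr19:4909471-4909500, plus strand: caaatgccgagttttcGCGGGAAaaaaatc
HELLS, chr10:94545758-94545787, plus strand: aggtatcgcgagatgacaggattTTCCCGC
KMT5A, chr12:123383882-123384131, plus strand: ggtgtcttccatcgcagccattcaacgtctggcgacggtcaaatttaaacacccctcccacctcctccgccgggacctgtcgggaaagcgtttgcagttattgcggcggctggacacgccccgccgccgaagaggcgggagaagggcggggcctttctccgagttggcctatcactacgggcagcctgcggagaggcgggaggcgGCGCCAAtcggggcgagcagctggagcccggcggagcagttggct
EZH1, chr17:42745050-42745290, minus strand: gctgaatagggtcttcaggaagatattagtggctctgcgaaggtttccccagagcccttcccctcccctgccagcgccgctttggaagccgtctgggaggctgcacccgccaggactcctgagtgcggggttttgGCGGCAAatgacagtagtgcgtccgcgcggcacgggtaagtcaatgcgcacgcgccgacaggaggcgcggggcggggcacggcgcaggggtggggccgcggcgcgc
EZH2, chr7:148884322-148884541, minus strand: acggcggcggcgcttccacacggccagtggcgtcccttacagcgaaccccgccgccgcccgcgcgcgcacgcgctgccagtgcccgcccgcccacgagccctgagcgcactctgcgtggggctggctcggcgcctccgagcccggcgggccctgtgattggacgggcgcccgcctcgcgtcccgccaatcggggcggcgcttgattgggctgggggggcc
A match is a run of letters and not a binding site. EZH1 held 1 and passed no test against control. DNMT3B, EZH2 and SUV39H1 held none in these windows and fell with all 3 herbs in A549 cells. EZH2 and SUV39H1 have 2 listed starts each, of which only the first was searched. The part of the motifs in the changes was not tested.

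The libraries held between 6803704 and 24345541 estimated counts. In Huh7 cells depth moved with the groups: control and P. chinensis libraries held at least 13259204 counts, and B. chinense and P. umbellatus libraries at most 11546100. Replicate 2 of P. umbellatus in Huh7 cells stood apart from the other libraries of its group, since the median ratio of squared difference to sampling noise was 13.28 and 17.64 for its pairs and between 2.74 and 5.36 for all other pairs. The lines could be told apart by their markers. The 8 hepatocyte genes summed to between 12780 and 23610 CPM in Huh7 cells and between 70.08 and 146.2 CPM in A549 cells, and KRT7, an epithelial keratin, was between 1550 and 1770 CPM in A549 cells and at most 0.123 in Huh7 cells. ALB and AFP were at a median of 0 in A549 cells. The 6 airway genes together summed to 6762 to 7935 CPM in A549 cells and to 2410 to 5462 in Huh7 cells. Of these, KRT7, KRT8, KRT18 and KRT19 had the higher median in A549 cells. EPCAM (8.44 against 1.68 CPM) and SFTPB (3.63 against 1.4) had the higher median in Huh7 cells. The hepatocyte sum was lower with P. chinensis than in control libraries of Huh7 cells (12780 to 13550 against 21360 to 21800 CPM) and lower with every herb in A549 cells (70.08 to 90.11 against 135.6 to 146.2), and its part in the results was not tested. Of the other cell types, the 2 listed leukocyte genes summed to at most 4.424 CPM and the 4 fibroblast genes to at most 15.1 CPM in any library, and PECAM1, of endothelium, lay between 31.85 and 55.86 CPM in Huh7 cells and at most 3.101 in A549 cells.

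CPM, the unit of level used here, is the count scaled to a common library size after normalization by TMM over all 24 libraries. Each fit used TMM factors of its own libraries and genes, so its fold changes can differ from those of CPM group means. Changes are log2 fold changes with their standard error (SE) from edgeR's quasi-likelihood test, two-sided, and a gene was called where the Benjamini-Hochberg adjusted p over all genes tested was below 0.05. The 95% intervals were made from the SE with the multiplier of a normal distribution. They are therefore somewhat narrower than intervals that allow for the small number of libraries.

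In control cells, several of these genes were lower in A549 than in Huh7 cells. Of the 10, 6 were called lower in A549 cells and 1 higher, beside 34.9% of 12924 genes called lower and 33.8% called higher. EZH2 was 2.123-fold lower in A549 cells (log2 -1.09, SE 0.21, edgeR adjusted p = 8.46e-05), DNMT3A 1.982-fold lower and HELLS 1.812-fold lower. SUV39H1, KMT5A and UHRF1 were lower by smaller amounts, at log2 -0.46, -0.27 and -0.21, of which KMT5A and UHRF1 lost the call when 1 library was left out (adjusted p up to 0.098 and 0.0542). EZH1 went the other way and was 2.373-fold higher in A549 cells (log2 1.25, SE 0.16, edgeR adjusted p = 2.54e-07). DNMT1, DNMT3B and SUV39H2 were not called, at log2 -0.21 (95% interval -0.62 to 0.19), -0.27 (-0.84 to 0.29) and -0.32 (-0.91 to 0.26). Divided by transcript length, HELLS and UHRF1 had the highest mean levels of the 10 in the controls of both lines. HELLS stood at 66.31 ± 2.05 CPM per kb (SD, n = 3) in A549 and 122 ± 0.985 in Huh7 cells, and UHRF1 at 47.15 ± 2.08 and 55.54 ± 2.97. The lowest was DNMT3A in A549 cells, at 3.535 ± 0.302, with DNMT3B beside it at 3.908 ± 0.442, and EZH1 in Huh7 cells, at 2.925 ± 0.227.

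**Figure D1:**
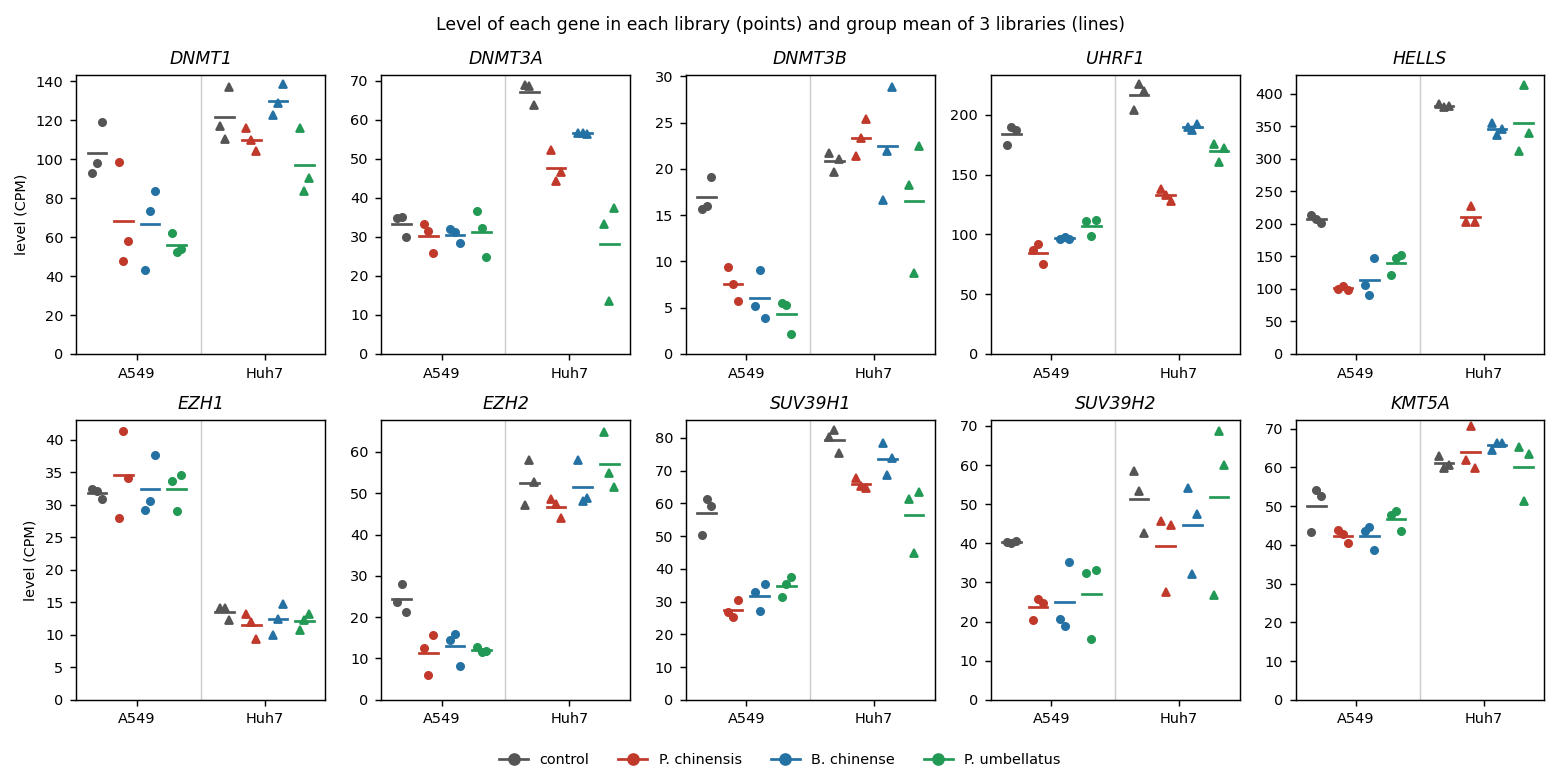
Level of each of the 10 genes in CPM (y axis, from 0) in every library of A549 cells (circles) and Huh7 cells (triangles), with the mean of the 3 libraries of each group as a line. UHRF1 libraries fall into separate control and treated ranges in A549 cells (174.5 to 189.5 against 75 to 112.3 CPM), while DNMT1 values with P. chinensis run from 47.82 to 98.38 and reach into the control range.

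In A549 cells, P. chinensis gave 7 of the 10 genes called lower, B. chinense 7 and P. umbellatus 6, and none was called higher by any herb, also not at an unadjusted p below 0.05. Among all 13633 genes tested, P. chinensis had 17.1% called lower and 15.8% higher, B. chinense 15.0% and 13.1%, and P. umbellatus 14.8% and 13.4%. In the same order, the median log2 fold change of the 10 genes was -0.93, -0.81 and -0.71, and that of all genes 0.01, 0.00 and -0.01. DNMT3B, UHRF1, HELLS, EZH2 and SUV39H1 were called lower with all 3 herbs. SUV39H2 and KMT5A were called lower with P. chinensis and B. chinense, and DNMT1 with P. umbellatus. DNMT3A and EZH1 were called with none. The 3 comparisons share the same control libraries, so they are not independent of each other. In bulk RNA, fewer cells that express a gene and less of its RNA per cell cannot be told apart. With upper quartile normalization in place of TMM, the share of all calls that were lower went from 52% to 39.5% for P. chinensis and from 53.3% to 41.4% for B. chinense, and the counts of the 10 genes called lower became 6 and 5.

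UHRF1 was the most precisely measured of the genes that maintain DNA methylation. In A549 controls it stood at 174.5, 189.5 and 187.4 CPM. It stood at 87.29, 91.97 and 75 CPM with P. chinensis, at 96.54, 98.18 and 96.16 with B. chinense, and at 111.2, 98.49 and 112.3 with P. umbellatus. All 9 treated libraries lay below all 3 controls. UHRF1 fell 2.217-fold with P. chinensis (log2 -1.15, SE 0.07, edgeR adjusted p = 1.98e-08), 1.945-fold with B. chinense (adjusted p = 2.31e-07) and 1.786-fold with P. umbellatus (adjusted p = 6.74e-07). It was also the only one of the 10 called lower with P. chinensis than with the other two herbs on average in A549 cells (log2 -0.25, SE 0.06, edgeR adjusted p = 0.0426), where 2.42% of all genes were called lower and 1.15% higher. That call was lost in 9 of the 12 fits that each left out 1 library (adjusted p up to 0.239).

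HELLS stood at 213.9, 207.4 and 201 CPM in A549 controls. With P. chinensis it stood at 99.81, 105.1 and 98.98 CPM, with B. chinense at 105.4, 90.24 and 147.3, and with P. umbellatus at 120.9, 147.9 and 152.6. Every treated library lay below every control, and replicate 3 of B. chinense was well above its 2 companions. HELLS fell 2.089-fold with P. chinensis (log2 -1.06, SE 0.14, edgeR adjusted p = 2.96e-05), 1.871-fold with B. chinense (adjusted p = 0.000184) and 1.546-fold with P. umbellatus (adjusted p = 0.00252).

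DNMT1 was lower on average with each herb in A549 cells, but its libraries scattered. It stood at 92.99, 97.95 and 118.9 CPM in controls. Under P. chinensis it stood at 98.38, 47.82 and 57.9 CPM, with B. chinense at 43.22, 73.49 and 83.62, and with P. umbellatus at 61.94, 52.17 and 53.67. Replicate 1 of P. chinensis lay within the control range, and the other 8 treated libraries lay below it. In the fit of all 12 libraries the change was called only with P. umbellatus, where DNMT1 fell 1.919-fold (log2 -0.94, SE 0.24, edgeR adjusted p = 0.00864). With P. chinensis the log2 fold change was -0.64 (95% interval -1.11 to -0.17, edgeR adjusted p = 0.0524) and with B. chinense -0.67 (-1.14 to -0.20, adjusted p = 0.0509). Both were called with voom (adjusted p = 0.0245 and 0.0281), with offsets for GC content and length (0.0272 and 0.0293), in the fits of 6 libraries (0.0469 and 0.0335) and without replicate 1 of P. chinensis (0.00327 and 0.0162), where the first became -0.99. DESeq2 called neither (0.109 and 0.104).

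DNMT3B was the gene with the largest fold change of the 10 in A549 cells. It stood at 15.69, 16 and 19.15 CPM in controls. P. chinensis libraries gave 9.421, 7.546 and 5.762 CPM, those with B. chinense at 5.218, 9.035 and 3.834, and with P. umbellatus at 5.496, 5.264 and 2.162. No treated library reached the control range. DNMT3B fell 2.265-fold (log2 -1.18, SE 0.31, edgeR adjusted p = 0.00829), 2.794-fold (adjusted p = 0.00266) and 3.866-fold (adjusted p = 0.000314). The treated libraries held between 17 and 89 counts for it, and its SE was the largest of the 10 with each herb. DNMT3A, its sister enzyme, lay between 30.03 and 35.14 CPM in controls and between 24.93 and 36.56 in the 9 treated libraries, with overlap in every comparison. Its log2 fold changes of -0.17, -0.16 and -0.14 had 95% intervals that reached no lower than -0.43.

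The Polycomb pair also split in A549 cells. EZH2 stood at 23.78, 27.97 and 21.17 CPM in controls. P. chinensis libraries gave 12.64, 5.914 and 15.71 CPM, with B. chinense at 14.52, 15.98 and 8.259, and with P. umbellatus at 12.66, 11.68 and 11.83. The treated libraries all lay below the controls, and the P. umbellatus libraries were the closest together. EZH2 fell 2.147-fold with P. chinensis (log2 -1.10, SE 0.28, edgeR adjusted p = 0.00716), 1.902-fold with B. chinense (adjusted p = 0.0228) and 2.082-fold with P. umbellatus (adjusted p = 0.0101). The B. chinense call was lost without replicate 3 of B. chinense (adjusted p = 0.0835) or without replicate 2 of the control (0.0813). EZH1 lay between 30.89 and 32.49 CPM in controls and between 28.02 and 41.4 in treated libraries, which straddled the control range with each herb. Its log2 fold changes were 0.09, -0.02 and -0.04, with 95% intervals within -0.30 and 0.36. Their sign turned with upper quartile normalization for B. chinense and P. umbellatus.

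Of the enzymes for lysine 9 of histone H3, SUV39H1 stood at 50.29, 61.24 and 59.19 CPM in A549 controls. With P. chinensis it stood at 26.83, 25.29 and 30.58 CPM, with B. chinense at 32.9, 27.22 and 35.25, and with P. umbellatus at 31.37, 35.32 and 37.52. The treated and control ranges did not overlap. SUV39H1 fell 2.099-fold with P. chinensis (log2 -1.07, SE 0.12, edgeR adjusted p = 7.41e-06), 1.84-fold with B. chinense (adjusted p = 6.96e-05) and 1.715-fold with P. umbellatus (adjusted p = 0.00016). SUV39H2 was tight in the controls, at 40.46, 40.04 and 40.61 CPM, and scattered in the treated libraries, between 15.51 and 35.1 CPM. No treated library reached the controls. The fall was called with P. chinensis (log2 -0.80, SE 0.25, edgeR adjusted p = 0.0251) and B. chinense (log2 -0.74, adjusted p = 0.0417), and it was not called with P. umbellatus (log2 -0.64, adjusted p = 0.0718). Leaving out 1 library raised the adjusted p to as much as 0.0875 and 0.164, and the calls were lost in 5 and 7 of 12 such fits.

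KMT5A changed least among the genes called. It stood at 43.45, 54.18 and 52.64 CPM in A549 controls, at 43.76, 42.72 and 40.43 with P. chinensis, at 43.56, 44.74 and 38.79 with B. chinense, and at 47.61, 48.82 and 43.62 with P. umbellatus. One control library lay within the treated range, and the groups overlapped with every herb. KMT5A fell 1.212-fold with P. chinensis (log2 -0.28, SE 0.09, edgeR adjusted p = 0.0263) and 1.213-fold with B. chinense (adjusted p = 0.0309), and stood at log2 -0.16 with P. umbellatus (adjusted p = 0.191). The first 2 calls were each lost in 4 of the 12 fits without 1 library, with adjusted p up to 0.111 and 0.124, and also with upper quartile normalization and in the fit of 6 libraries.

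**Figure D2:**
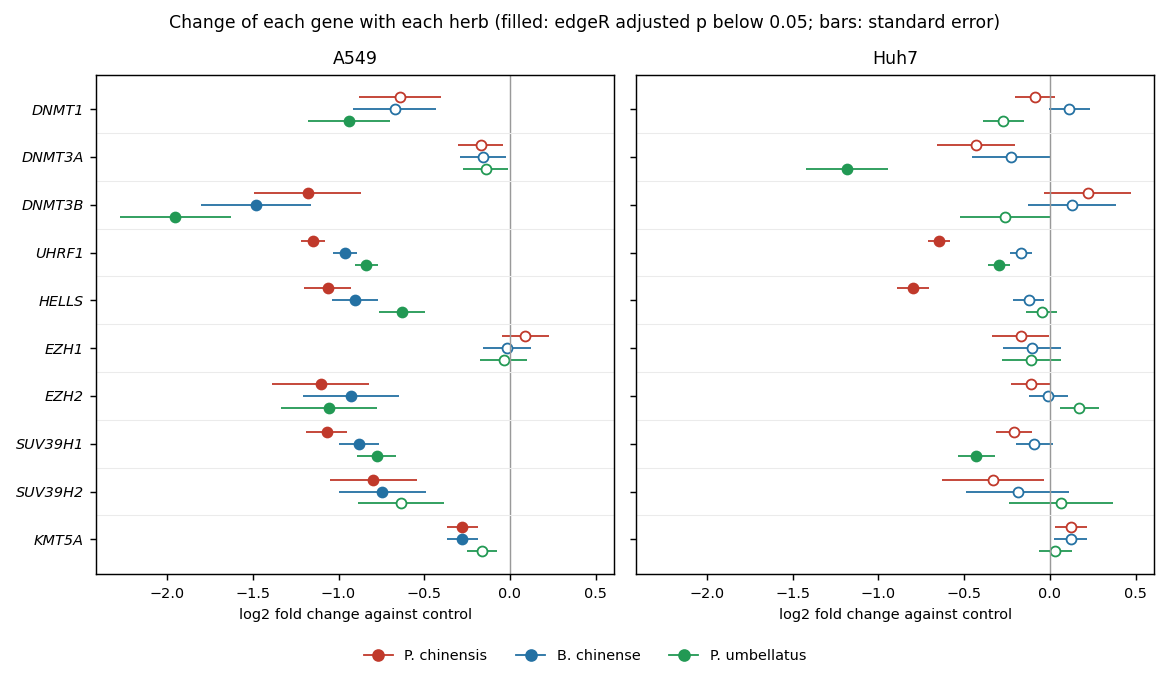
Log2 fold change against control (x axis) of each gene with each herb in A549 cells (left) and Huh7 cells (right), with bars for the standard error and filled circles where the edgeR adjusted p was below 0.05. In A549 cells 20 of 30 values are filled and lie below 0, and in Huh7 cells 5 of 30.

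In Huh7 cells far fewer of the 10 genes were called: P. chinensis gave 2 lower, B. chinense 0 and P. umbellatus 3 lower, and none was called higher by edgeR, DESeq2 or voom. Over all 13875 genes the calls were 10.5% lower and 10.5% higher for P. chinensis, 0.757% and 0.519% for B. chinense, and 17.8% and 19.3% for P. umbellatus. These shares moved with the fit. In the fits of 6 libraries, P. chinensis had 2976 genes lower and 2884 higher (1451 and 1450 in the fit of 12), B. chinense 723 and 399 (105 and 72), and P. umbellatus 715 and 512 (2464 and 2674), and with voom B. chinense had 723 and 506. The median log2 fold change of the 10 genes was -0.19, -0.10 and -0.19, beside 0.01, 0.00 and 0.03 for all genes. With B. chinense, 1 gene (UHRF1) had an unadjusted p below 0.05 in edgeR, DESeq2 called 0, voom called 1 and the fit of 6 libraries called 3. With upper quartile normalization the share of all calls that were lower went from 50% to 38.9% with P. chinensis, and with offsets for GC content and length it went from 48% to 70.5% with P. umbellatus.

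UHRF1 and HELLS were the 2 genes called with P. chinensis in Huh7 cells. UHRF1 stood at 203.7, 226.2 and 219.7 CPM in controls and at 137.8, 133.1 and 127.9 with P. chinensis. It stood at 189.8, 187.2 and 192.5 CPM with B. chinense and at 175.9, 160.8 and 172 with P. umbellatus. Each treated group lay wholly below the controls, with P. chinensis lowest. UHRF1 fell 1.564-fold with P. chinensis (log2 -0.65, SE 0.06, edgeR adjusted p = 2.67e-05) and 1.229-fold with P. umbellatus (log2 -0.30, SE 0.06, adjusted p = 0.00509), and was 1.126-fold below control with B. chinense (adjusted p = 0.28). The P. umbellatus call was lost with offsets for GC content and length (log2 -0.11, adjusted p = 0.215). HELLS stood at 385.2, 379.2 and 380.8 CPM in controls, at 202.2, 227.1 and 203 with P. chinensis, at 355.1, 336.6 and 345.7 with B. chinense, and at 312.8, 413.6 and 339.6 with P. umbellatus. The P. chinensis libraries stood apart from the other 9. HELLS fell 1.739-fold with P. chinensis (log2 -0.80, SE 0.09, edgeR adjusted p = 8.06e-05), and its log2 fold changes with B. chinense and P. umbellatus were -0.12 (95% interval -0.30 to 0.05) and -0.05 (-0.23 to 0.13). Without replicate 2 of P. umbellatus the last was -0.18 with an adjusted p of 0.0281.

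The same pair was called lower with P. chinensis than with the other two herbs on average in Huh7 cells, a contrast that does not use the controls. UHRF1 was 1.33-fold lower (log2 -0.41, SE 0.06, edgeR adjusted p = 0.000538) and HELLS 1.638-fold lower (log2 -0.71, SE 0.08, adjusted p = 0.000167). In this contrast 12.1% of all genes were called lower and 9.69% higher, and the split of calls went from 55.5% to 43.2% lower with offsets for GC content and length and to 44.6% with upper quartile normalization. The other 8 genes were not called. Depth moved with this contrast, since the P. chinensis libraries were the deeper ones, and its part was not tested.

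DNMT3A had the largest fold change of the 10 genes in Huh7 cells, with P. umbellatus. It stood at 68.83, 68.72 and 63.8 CPM in controls. Under P. chinensis it stood at 52.31, 44.28 and 46.55 CPM, with B. chinense at 56.62, 56.52 and 56.44, and with P. umbellatus at 33.3, 13.48 and 37.43. Every treated library lay below every control, and replicate 2 of P. umbellatus, the library that stands apart, was the lowest. DNMT3A fell 2.27-fold with P. umbellatus (log2 -1.18, SE 0.24, edgeR adjusted p = 0.00368), and without that library it fell by 0.87 on the log2 scale (adjusted p = 4.3e-05). With P. chinensis the log2 fold change was -0.43 (SE 0.23, adjusted p = 0.209) in the fit of all 12 libraries and also -0.43 without that library, with an adjusted p of 0.000413. With B. chinense it was -0.23 (SE 0.23, adjusted p = 0.786). The 6 libraries of P. chinensis and control alone gave the same log2 fold change with an adjusted p of 0.000789, and the 6 of P. umbellatus and control gave -1.22 with 0.0542.

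SUV39H1 stood at 80.2, 82.51 and 75.34 CPM in Huh7 controls and at 61.2, 44.88 and 63.48 with P. umbellatus, with no overlap. It fell 1.347-fold (log2 -0.43, SE 0.11, edgeR adjusted p = 0.0104), and by 0.29 on the log2 scale without replicate 2 of P. umbellatus (adjusted p = 0.00514). With offsets for GC content and length it was -0.11 and not called (adjusted p = 0.215). With P. chinensis it stood at 67.6, 65.21 and 64.77 CPM, also below the controls, at log2 -0.21 (adjusted p = 0.192, and 0.0113 without that library). With B. chinense it stood at 78.54, 68.57 and 73.75 CPM and overlapped the controls. For SUV39H1 as for DNMT3A, the P. chinensis value was called once replicate 2 of P. umbellatus was left out.

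The genes that fell in A549 cells but were not called in Huh7 cells had narrow intervals in some cases and wide ones in others. EZH2 lay between 47.1 and 57.97 CPM in Huh7 controls and between 44.11 and 64.72 in the treated libraries, with log2 fold changes of -0.11 (95% interval -0.33 to 0.11), -0.01 (-0.23 to 0.21) and 0.17 (-0.05 to 0.40). The last turned to -0.05 with offsets for GC content and length, and the B. chinense value turned to 0.01 with upper quartile normalization. KMT5A lay between 59.9 and 63.02 CPM in controls and between 51.41 and 70.59 in treated libraries, with all 3 intervals within -0.16 and 0.31, and only its B. chinense libraries (64.41 to 66.45 CPM) lay wholly above the controls. DNMT3B lay between 19.7 and 21.68 CPM in controls and between 8.754 and 28.86 in treated libraries, and its lowest value was again in replicate 2 of P. umbellatus. Its 3 intervals ran from -0.78 to 0.72. SUV39H2 was the most scattered of the genes in Huh7 cells, between 42.66 and 58.37 CPM in controls and between 26.85 and 68.78 with P. umbellatus alone, and its 95% intervals reached down to -0.91 for P. chinensis, -0.78 for B. chinense and -0.53 for P. umbellatus. DNMT1 lay between 110.5 and 137.3 CPM in controls and between 83.92 and 138.7 in treated libraries, and its largest change was log2 -0.27 with P. umbellatus (adjusted p = 0.0913). EZH1 lay between 12.33 and 14.17 CPM in controls and between 9.324 and 14.68 in treated libraries, and all its intervals held 0.

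The difference between the lines was tested directly as an interaction over the 24 libraries. With P. chinensis, 4 of the 10 genes fell more in A549 than in Huh7 cells (DNMT3B, UHRF1, EZH2 and SUV39H1), beside 9.30% of 12924 genes lower and 10.3% higher. With B. chinense there were 4 (DNMT3B, UHRF1, HELLS and SUV39H1), beside 5.80% lower and 5.80% higher. With P. umbellatus there were 4 (DNMT3B, UHRF1, EZH2 and HELLS), beside 15.3% lower and 19.1% higher, and DNMT3A went the other way. With offsets for GC content and length, the share of all calls of that last contrast that were lower went from 44.5% to 32.0%, and the median of all genes moved to 0.11. UHRF1 and DNMT3B differed between the lines with all 3 herbs. The difference for UHRF1 was log2 -0.45 (SE 0.09, edgeR adjusted p = 0.00141) with P. chinensis, -0.75 (adjusted p = 1.44e-05) with B. chinense and -0.46 (adjusted p = 0.000877) with P. umbellatus. That for DNMT3B was -1.35 (SE 0.42, edgeR adjusted p = 0.0238), -1.57 (adjusted p = 0.0177) and -1.6 (adjusted p = 0.00641). The HELLS difference with P. umbellatus (log2 -0.50, edgeR adjusted p = 0.0332) became -0.05 with offsets for GC content and length (adjusted p = 0.875). HELLS was not shown to differ with P. chinensis (log2 -0.21, 95% interval -0.56 to 0.13, edgeR adjusted p = 0.455), and it fell in both lines with that herb.

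**Figure D3:**
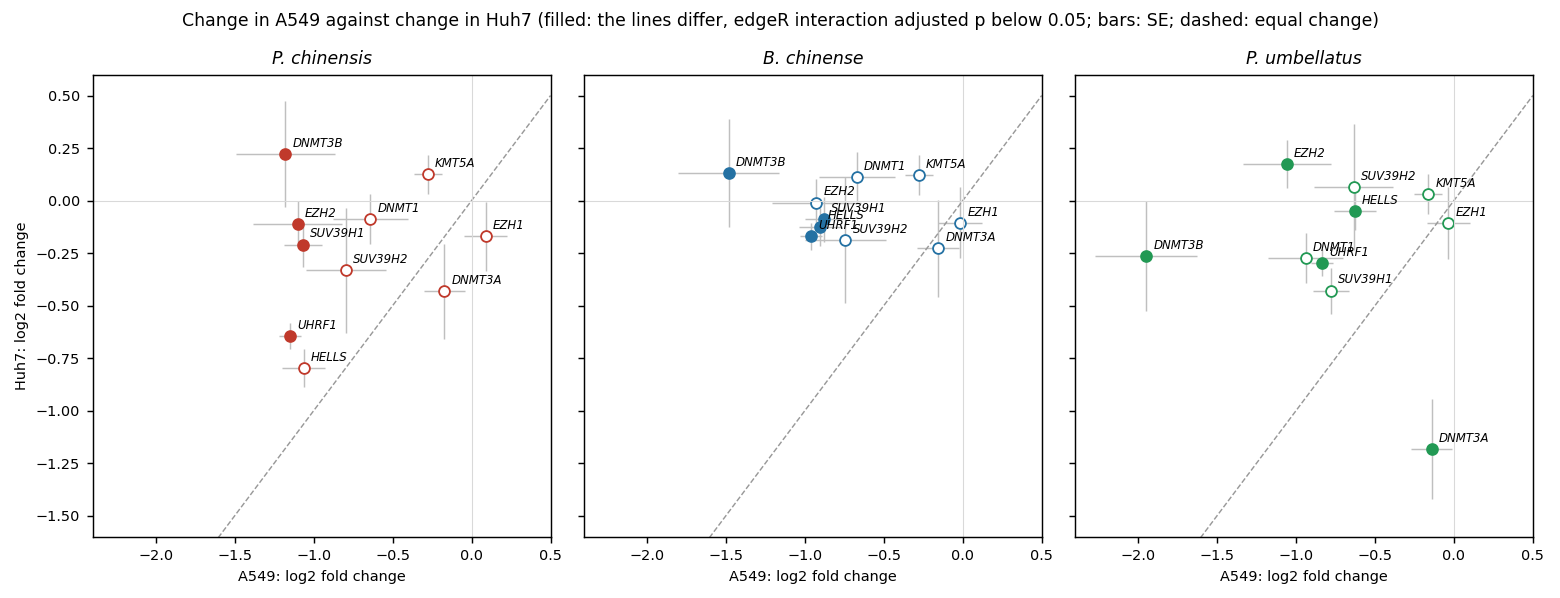
Log2 fold change in A549 cells (x axis) against that in Huh7 cells (y axis) for each gene and each herb, with standard errors as bars, the line of equal change dashed, and filled circles where the interaction passed an edgeR adjusted p of 0.05. With P. chinensis HELLS (-1.06 and -0.80) is the closest to the dashed line of the genes called in A549 cells, and with P. umbellatus DNMT3A (-0.14 and -1.18) lies far below it.

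Within a library, the balance of related enzymes could be read from the ratio of their levels per kb, on which no test was run. EZH2 over EZH1 lay between 1.2 and 1.52 in A549 controls and between 0.249 and 0.914 in the 9 treated libraries. Per kb, EZH1 thus stood above EZH2 in every treated library and below it in every control. That order depends on the transcript length used for each gene, 4633 bases for EZH1 and 2654 for EZH2. In CPM, EZH1 (30.89 to 32.49) lay above EZH2 (21.17 to 27.97) in A549 controls too. In Huh7 cells EZH2 over EZH1 lay between 5.81 and 7.46 in controls and between 5.8 and 10.5 in treated libraries. DNMT3B over DNMT3A moved in opposite directions. In A549 cells it went from a mean of 1.12 ± 0.23 (SD, n = 3) to 0.539 ± 0.067 under P. chinensis, 0.425 ± 0.18 under B. chinense and 0.29 ± 0.09 under P. umbellatus. In Huh7 cells it went from 0.675 ± 0.048 to 1.07 ± 0.16, 0.863 ± 0.24 and 1.3 ± 0.11, and only the B. chinense libraries overlapped the controls. DNMT1 over DNMT3A lay between 2.87 and 3.84 in Huh7 controls and between 3.86 and 11.1 in the treated libraries, all above the controls. The 11.1 was replicate 2 of P. umbellatus, the library that stands apart, and the next highest was 6.23. In Huh7 cells DNMT3A lay below the controls in every treated library, and neither DNMT1 nor DNMT3B was called with any herb in the fit of 12 libraries. In A549 cells DNMT1 over DNMT3A lay between 4.78 and 7.07 in controls, and only the P. umbellatus libraries (2.9 to 3.85) lay wholly below. SUV39H1 over SUV39H2 overlapped the controls with every herb in both lines.

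**Figure D4:**
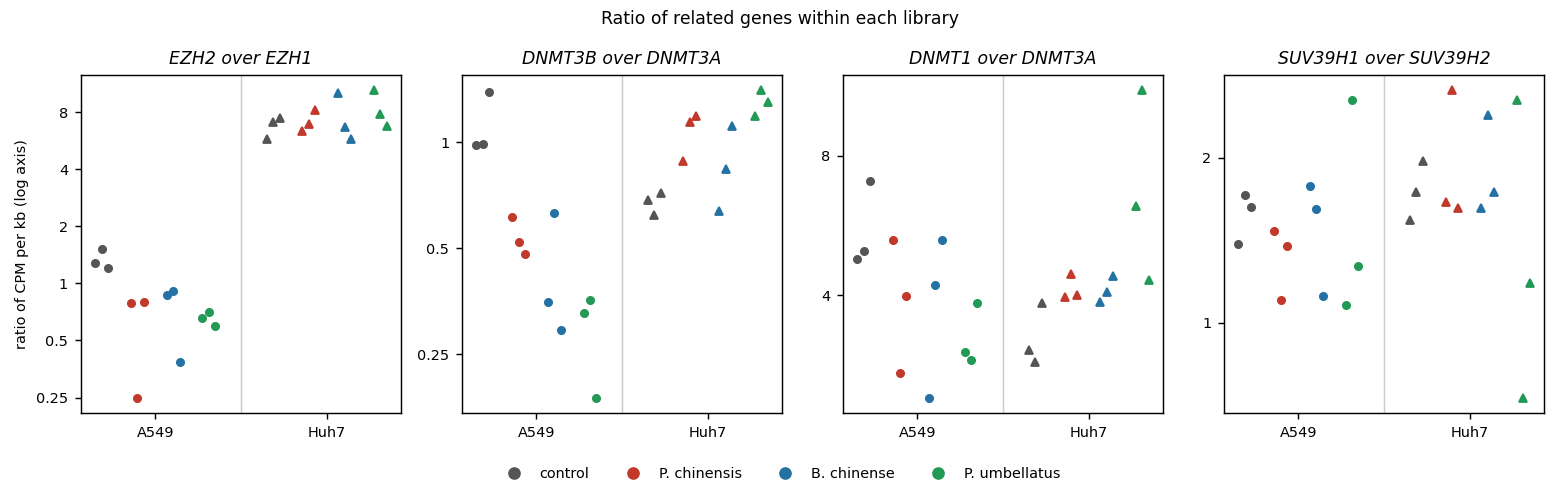
Ratio of the level per kb of 2 related genes (y axis, log scale) in each library of A549 cells (circles) and Huh7 cells (triangles). EZH2 over EZH1 is below 1 in all 9 treated A549 libraries and above 5 in all Huh7 libraries, and DNMT3B over DNMT3A is lower in treated than in control A549 libraries.

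For the 5 genes called in at least 3 of the 6 comparisons with control, the genes with the most similar set of 6 log2 fold changes were found among 11108 genes. They are given as a description, since the comparisons share controls. For UHRF1 they were CHAF1B, a chromatin assembly factor subunit, MCM6, a subunit of the replicative helicase, and CDCA7, a partner of HELLS, with root mean square differences of 0.0779, 0.0909 and 0.104. For HELLS they were MCM6 (0.109), the tubulin gene TUBA1B (0.131) and WDR76 (0.138). For EZH2 they were RFC4, a subunit of the clamp loader (0.0641), TRIP13 (0.0842) and SPAG5 (0.0958). For SUV39H1 they were RNASEH2A (0.08), THRA (0.0947) and INCENP (0.107). DNMT3B had no neighbour as close, and its nearest were TACC3 (0.182), PLXNC1 (0.204) and EPCAM (0.227).

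Companion lists placed the 10 genes beside the rest of their pathways and beside the cell cycle. The 41 tested S phase genes, without UHRF1 and HELLS, and the 54 G2/M genes were called lower almost throughout in A549 cells: 38 of 41 and 53 of 54 under P. chinensis, 38 and 51 under B. chinense, and 38 and 52 under P. umbellatus, and none was called higher. Their median log2 fold changes in that order were -1.25 and -1.26, -0.88 and -0.97, and -0.84 and -0.95, each further from 0 than the median of the 10 genes. MCM5, a helicase subunit, fell by 1.62, and TOP2A, a topoisomerase of dividing cells, by 1.58 on the log2 scale with P. chinensis (edgeR adjusted p = 1.02e-09 and 1.34e-09). In Huh7 cells with P. chinensis, 26 S phase genes were called lower and 0 higher (median -0.44), while of the G2/M genes 14 were lower and 6 higher (median -0.16). MCM6 fell there by 0.77 (adjusted p = 8.06e-06) and CDC45, a component of the active replicative helicase, by 0.63 (adjusted p = 0.000133). With B. chinense 0 genes of either list were called by edgeR, while at an unadjusted p below 0.05 there were 5 lower in each list and 1 higher in the G2/M list. With P. umbellatus 7 S phase genes were lower and 5 higher, and 10 G2/M genes were lower and 15 higher. The share of cells in each phase was not measured.

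Among the 8 DNA methylation partners, 5, 5 and 4 were called lower with the 3 herbs in A549 cells and 4, 0 and 1 in Huh7 cells, with none higher. CHAF1A, the large subunit of the chromatin assembly factor, fell by 1.38 on the log2 scale with P. chinensis in A549 cells (edgeR adjusted p = 1.16e-07) and by 0.52 in Huh7 cells (adjusted p = 0.0063). PCNA, the sliding clamp, fell by 0.48 and 0.57 (adjusted p = 1.65e-06 and 0.00173). PCNA, CHAF1B and CDCA7 are also in the S phase list. Of 10 genes for the removal and reading of DNA methylation, 6 were lower and 1 higher with P. chinensis in A549 cells. TET2, which oxidizes methylcytosine, was the one that rose, by log2 0.55 (adjusted p = 3.25e-05), 0.38 and 0.35 with the 3 herbs, while MBD4, a DNA glycosylase that binds methylated CpG sites, fell with P. chinensis by 0.50 (adjusted p = 0.00586). With B. chinense and P. umbellatus 3 were lower and 1 higher in A549 cells. In Huh7 cells 1 was lower and 1 higher with P. chinensis, 0 with B. chinense, and 1 lower and 4 higher with P. umbellatus. TET1 fell by 0.57 with P. chinensis in Huh7 cells (adjusted p = 0.00261).

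Of 25 tested Polycomb subunits, 8 were lower and 1 higher with P. chinensis in A549 cells, 7 and 0 under B. chinense, and 8 and 1 under P. umbellatus. Their medians of log2 -0.15, -0.15 and -0.11 were nearer to 0 than the change of EZH2. PHF19, an accessory subunit of Polycomb repressive complex 2, fell by 0.95 with P. chinensis (edgeR adjusted p = 4.27e-07), CBX2, a chromodomain subunit, by 0.83, and the histone chaperone RBBP7 by 0.54. In Huh7 cells 6 were lower with P. chinensis, 0 were called with B. chinense, and 6 were lower and 7 higher with P. umbellatus. RBBP4 fell there by 0.34 with P. chinensis (adjusted p = 0.0116) and PHC2 by 0.39 (adjusted p = 0.0246). PHC2 went the other way in A549 cells, where it rose by log2 0.42 with P. chinensis (edgeR adjusted p = 0.00101) and by 0.44 with P. umbellatus (adjusted p = 0.000798). Of the 2 demethylases of lysine 27 of histone H3, KDM6B rose in A549 cells by log2 1.04, 0.72 and 0.82 with the 3 herbs (edgeR adjusted p = 2.63e-06, 0.000146 and 3.58e-05), and KDM6A was not called (0.25, 0.16 and 0.25). In Huh7 cells neither was called, and KDM6B stood at 0.53 with P. chinensis (adjusted p = 0.0541).

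The genes around lysine 9 of histone H3 were mixed. In A549 cells 5 of 14 were lower with each herb, and 3, 2 and 1 were higher. CBX5 and CBX3, which encode HP1 proteins that bind this mark, fell by 0.71 and 0.45 with P. chinensis (edgeR adjusted p = 1.98e-07 and 3.35e-06), and the demethylase KDM4B rose by log2 0.88 (adjusted p = 8.03e-06). CBX5 is also in the G2/M list. In Huh7 cells, of 13 tested, P. chinensis gave 2 lower and 1 higher, B. chinense 0 and 1, and P. umbellatus 2 and 2. CBX5 fell by 0.63 there with P. chinensis (adjusted p = 6.33e-05), the methyltransferase SETDB1 by 0.46 (adjusted p = 0.000754), and the demethylase KDM3A rose by log2 0.73 (adjusted p = 8.54e-05). Of 7 genes around lysine 20 of histone H4, 1, 1 and 2 were lower in A549 cells and 1, 0 and 0 in Huh7 cells. DTL, the substrate receptor of the ubiquitin ligase that destroys KMT5A in S phase, fell by 1.62, 1.18 and 1.03 with the 3 herbs in A549 cells (edgeR adjusted p = 3.13e-08, 1.15e-06 and 3.31e-06) and by 0.51 with P. chinensis in Huh7 cells (adjusted p = 0.0105), and it is also in the S phase list. KMT5C stood at log2 -1.14 with P. chinensis in A549 cells with an SE of 0.75 and was not called (adjusted p = 0.258).

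**Figure D5:**
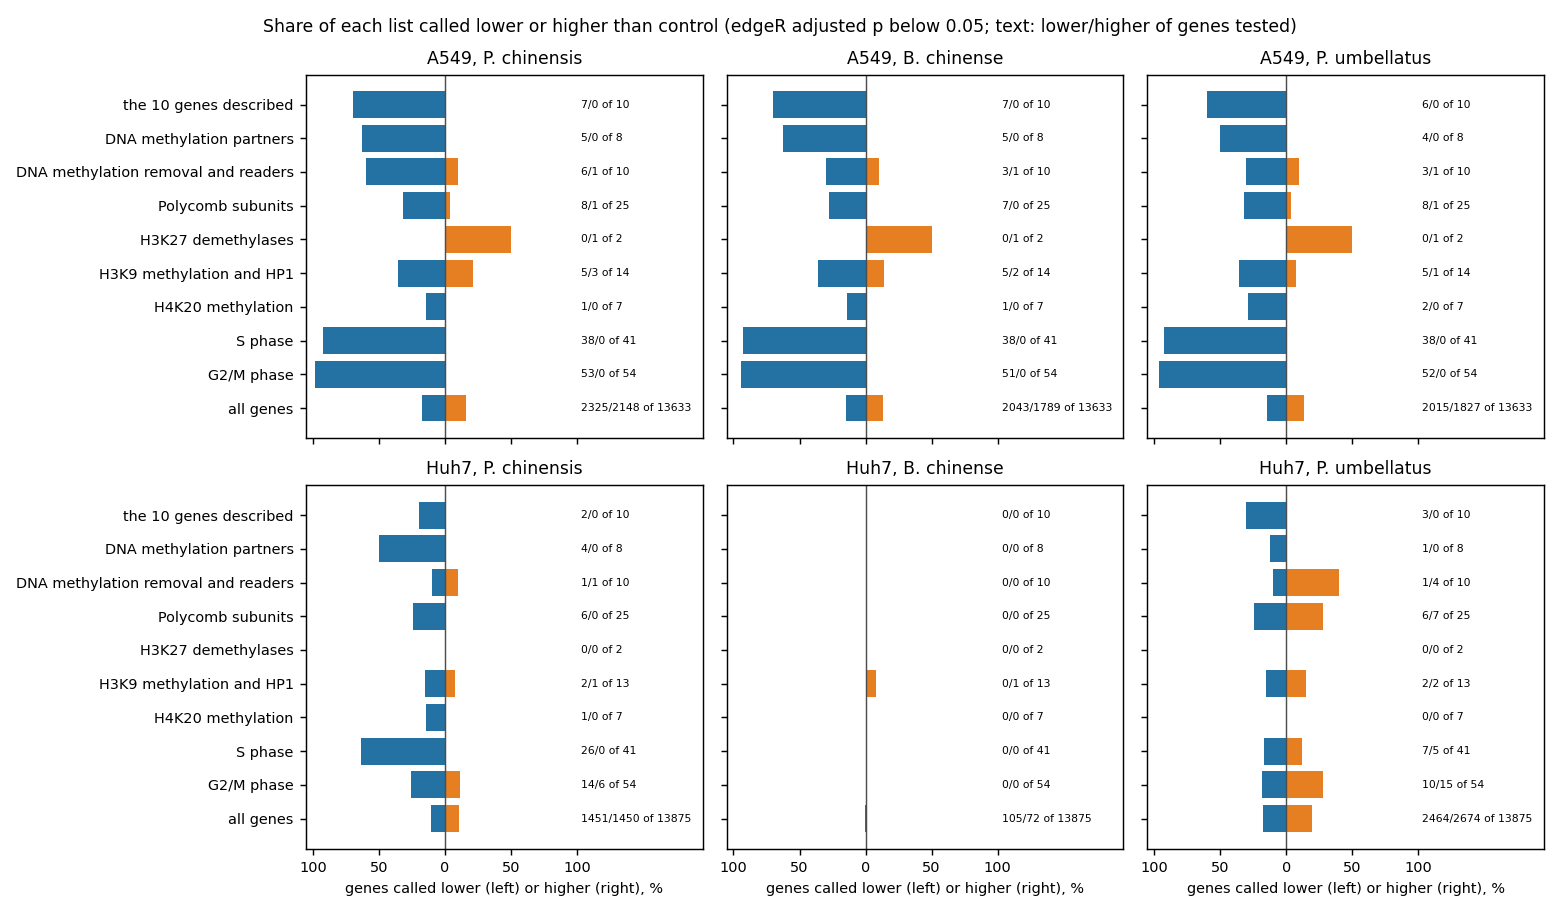
Percent of the tested genes of each list called lower (blue, left of 0) or higher (orange, right of 0) than control with an edgeR adjusted p below 0.05, for each herb (columns) in A549 cells (top) and Huh7 cells (bottom), with the counts as text. The S phase and G2/M lists fill nearly the whole left side in A549 cells, the 10 genes described reach 7 of 10 with P. chinensis, and in the panel of B. chinense in Huh7 cells 1 gene of the lists is called (KDM3A).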

How the data were processed

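RNA of 24 libraries was prepared with a stranded kit that removes ribosomal RNA. The authors used FastQC and kallisto on Ensembl GRCh38.p13 transcripts (tool versions and strand setting not given in the sources used here), kept protein-coding genes averaging over 5 counts, and deposited gene-level estimated counts, rounded and not normalized. How reads shared by a gene and its processed copies or overlapping genes were divided is not stated. The files pair no symbols with the identifiers, which were matched to GENCODE on GRCh38 (14584 of 14585), and 1 gene without a type was left out. Groups follow the treatment labels.

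The members and all gene lists were chosen with earlier results of these data known. Genes averaging over 5 counts in the 12 libraries of a line (13633 in A549, 13875 in Huh7) were normalized by TMM and fitted in 1 quasi-likelihood model per line with edgeR 4.0.16 in R 4.3.3, prior count 2. Interactions and control lines were tested over all 24 libraries. Alternatives used DESeq2 1.42.0, RLE and upper quartile scaling, limma 3.58.1 (voom with sample weights), other filters, 6 libraries only, the replicate block, GC and length offsets, an absolute log2 fold change of at least 1, and each replicate left out. All 10 genes are named. From each companion list up to 3 genes of lowest p with P. chinensis per line could be named, of which 1 is not reported here. Likeness used genes averaging 50 counts or more. The planned comparison of paralog proteins was not run.

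On simulated counts for P. chinensis against control, edgeR found 140 of the 200 genes given a log2 change of 1 in A549 cells with 8 false calls, and 129 with 3 false calls in Huh7 cells. DESeq2 found 142 and 140 with 25 and 20 false calls. The simulation changed only these 200 genes in each line, of 13633 tested in A549 cells. In the data, 17.1% were called lower and 15.8% higher with P. chinensis in A549 cells, so these rates may not hold there. Depth sets counting error only, and precision is given by the SE between libraries. No replicate pair agreed within sampling noise. Same-numbered libraries of different groups did not deviate together (0 of 18 pairs in each line with a correlation over 0.1).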

Additional observations from a re-analysis of the deposited data

Results flagged for a closer look

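The change with a herb differed between A549 and Huh7 cells for 13 of the 30 combinations of gene and herb, each by the interaction term of edgeR with an adjusted p below 0.05. Across all 12924 genes tested, the P. chinensis term was called below 0 for 9.30% and above 0 for 10.3%. The B. chinense term was called for 5.80% on each side. P. umbellatus had the largest shares, 15.3% below 0 and 19.1% above. Each value below is the interaction term of the fit of all 24 libraries, A549 less Huh7 cells. It can differ from the difference of the log2 fold changes fitted within each line. DNMT3B differed by -1.35 under P. chinensis, -1.57 under B. chinense and -1.6 under P. umbellatus. UHRF1 differed by -0.45, -0.75 and -0.46 with the same herbs. EZH2 differed by -0.94 with P. chinensis and by -1.15 with P. umbellatus, HELLS by -0.74 with B. chinense and by -0.50 with P. umbellatus, and SUV39H1 by -0.81 with P. chinensis and by -0.75 with B. chinense. Among the 13, DNMT3A had the only difference above 0, at 1.12 with P. umbellatus, and at 0.77 (adjusted p = 0.00114) without replicate 2 of P. umbellatus in Huh7 cells.

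Of these 13, 9 passed the test under every alternative that refitted the model and with each of the 24 libraries left out, and 5 had an absolute value of at least 1. The exceptions were DNMT3B with P. chinensis and B. chinense, EZH2 with P. chinensis and HELLS with P. umbellatus, whose adjusted p rose to at most 0.0709, 0.052, 0.0848 and 0.105 when 1 library was left out. EZH2 with P. chinensis also lost the call under the replicate block (adjusted p = 0.0572), and HELLS with P. umbellatus under voom (0.0593) and with GC and length offsets (0.875). The causes were not tested. In Huh7 cells the depth of the libraries differed between groups, and in A549 cells the ranges overlapped.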

How the results depend on the processing

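Of the 25 calls of these genes against control, 17 passed under all 21 alternatives that refitted the model, the fits without 1 library included, and 20 with each library left out, while only 9 had an absolute log2 fold change of at least 1. Calls lost were those of SUV39H2 and KMT5A with P. chinensis and B. chinense, EZH2 with B. chinense in A549 cells, and DNMT3A, UHRF1 and SUV39H1 with P. umbellatus in Huh7 cells, the last 3 in the fit of 6 libraries and UHRF1 and SUV39H1 also with GC and length offsets. With an absolute log2 fold change of at least 1 required, the genes called lower numbered 1 with B. chinense and 2 with P. umbellatus in A549 cells, 0 and 1 with P. chinensis and P. umbellatus in Huh7 cells, 0 in both contrasts of P. chinensis with the other two herbs, 1, 1 and 2 in the interactions with the 3 herbs, and 1 between the controls. UHRF1 in the contrast of herbs in A549 cells gave 0 calls also with upper quartile normalization, voom and the replicate block, whose numbers do not pair the libraries (no pair of either line correlated over 0.1), and the block changed no other count by over 1.5 times. Among single genes it ended the line difference of EZH2 with P. chinensis (adjusted p = 0.0572) and added the call of SUV39H2 with P. umbellatus in A549 cells (0.0451). With voom the counts were 4 with P. chinensis and 1 with B. chinense in Huh7 cells and 7 in the B. chinense interaction. In the fits of 6 libraries they were 4, 3 and 0 with the 3 herbs in Huh7 cells. Leaving out 1 library gave 4 to 8 calls with B. chinense in A549 cells (4 without control replicate 2), 0 to 1 for the contrast of herbs there, and 2 to 4 with P. chinensis in Huh7 cells (4 without P. umbellatus replicate 2).

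No value with a turned sign had passed the test. With upper quartile normalization these were EZH1 in A549 cells with B. chinense (0.04) and P. umbellatus (0.00), EZH2 in Huh7 cells with B. chinense (0.01), and DNMT1 in the Huh7 contrast of herbs (0.03). With GC and length offsets they were, with P. umbellatus in Huh7 cells, EZH2 (-0.05), SUV39H2 (-0.33) and KMT5A (-0.04), and SUV39H1 in the Huh7 contrast of herbs (-0.10). With voom they were SUV39H2 (-0.44, P. umbellatus, Huh7) and EZH1 in the Huh7 contrast of herbs (0.02), and with 6 libraries KMT5A (0.00, P. umbellatus, Huh7). With 1 library left out, values in A549 cells ranged for EZH1 from -0.05 to 0.22 with P. chinensis, -0.14 to 0.06 with B. chinense and -0.09 to 0.04 with P. umbellatus, and in the contrast of herbs from -0.18 to 0.37 for DNMT1, -0.09 to 0.07 for DNMT3A, -0.03 to 0.24 for EZH1, -0.43 to 0.20 for EZH2 and -0.24 to 0.05 for SUV39H2. In Huh7 cells they ranged from -0.17 to 0.01 for DNMT1 with P. chinensis. With B. chinense they ranged from -0.09 to 0.30 for DNMT3B, -0.24 to 0.02 for EZH1 and -0.10 to 0.06 for EZH2. With P. umbellatus they ranged from -0.54 to 0.02 for DNMT3B, -0.18 to 0.03 for HELLS, -0.18 to 0.37 for SUV39H2 and -0.04 to 0.13 for KMT5A. In the Huh7 contrast of herbs they ranged from -0.05 to 0.07 for DNMT1, -0.18 to 0.06 for EZH1, -0.02 to 0.09 for SUV39H1 and -0.03 to 0.10 for KMT5A, and the B. chinense interaction of EZH1 from -0.01 to 0.25. The causes were not tested.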
